A study of Mus musculus with 12 samples.

Results

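The Hsp70 and Hsp110 chaperones were followed through heat shock in mouse embryonic fibroblasts (MEFs) that carry or lack transglutaminase type 2 (TG2). The genes were chosen by symbol, and all 10 listed symbols (Hspa1a, Hspa1b, Hspa1l, Hspa2, Hspa8, Hspa9, Hspa14, Hspa4, Hspa4l and Hsph1) were found among the 45808 genes of the normalised table. The study asked how TG2 shapes the transcriptome at rest and once the heat shock response is switched on. It compared 4 groups of 3 RNA-seq libraries, all from C57BL/6 MEFs: heat-shocked TG2-/- cells (KO heat shock), TG2-/- cells kept at 37 °C (KO control), heat-shocked wild-type cells (WT heat shock) and wild-type cells at 37 °C (WT control). Heat shock was 20 min in a water bath at 42 °C, and no recovery time is given in the sources used here. The fibroblasts came from trypsinized embryos and were passaged until they immortalized spontaneously, so that genotype and separately immortalized line cannot be told apart.

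Hsp70 proteins are ATP-driven chaperones that bind exposed stretches of unfolded protein, and cycles of ATP hydrolysis and nucleotide release let the client fold. J-domain proteins (Hsp40s) deliver clients and start the hydrolysis, while Hsp110 proteins are distant relatives of Hsp70 that exchange its nucleotide. Cells hold constitutive members for everyday folding and inducible ones whose transcription is turned on by heat shock factor 1 (HSF1), which binds heat shock elements in their promoters.

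The libraries held 15319300 to 27668395 reads in genes, and 1 read was worth 0.699 to 1.38 units of signal, the read count divided by 1 size factor per library. Tgm2, the gene that encodes TG2, had a signal of 1049, 526 and 1092 in the KO heat shock libraries and 1189, 1032 and 1065 in the KO control libraries, against 2049, 1957 and 1989 in WT heat shock and 1750.2, 1635 and 1605 in WT control. It was below WT in every KO library but not near 0 (log2 fold change at 37 °C -0.60, adjusted p = 0.0104 from limma), and since the table counts whole genes and the deleted part is not given in the sources used here, this is a weak check of the labels. The call at 37 °C ended at -0.56 to -0.58 with quantile or TMM normalization, with edgeR and without WT control replicate 1 or KO control replicate 2. Of 10 fibroblast markers 9 had a mean signal of at least 10 in each group, against 1 of 7 epithelial, 0 or 1 of 6 endothelial and none of 8 male germ cell markers. Macrophage markers summed to 1414 to 1811 in KO and 4324 to 5796 in WT libraries, with 3 of 7 at a mean of 10 or more in each group, and the defining marker Adgre1 was at 0 in all of them. These 3 did not share 1 direction: at 37 °C Cd14 was called higher in KO MEFs (3.07 on the log2 scale), Csf1r was called lower (-8.62) and Cd68 was not called (-0.53), while after heat shock Cd68 too was called lower (-0.65). Their part in the genotype differences was not tested. In bulk RNA, fewer cells of a type and less RNA per cell cannot be told apart.

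Genes were tested when their signal reached 10 in at least 3 libraries, and a gene was called at an adjusted p of at most 0.05 with a fold of at least 1.5 (0.58 on the log2 scale). Fold changes are on the log2(signal + 1) scale, which understates those of low genes. Of the 10 genes 9 passed this filter and Hspa1l did not. Hspa1a passed through 4 libraries, the 3 of WT heat shock and 1 of KO heat shock, so its difference between groups follows in part from the filter.

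Hspa1a and Hspa1b encode the inducible Hsp70 of the cytosol and nucleus, and both rose after heat shock in each genotype. They are single-exon genes that lie 9951 bases apart on the minus strand of chromosome 17 (GRCm38), Hspa1a at 34969190 to 34972156 and Hspa1b at 34956436 to 34959238. Hspa1b had 70.1, 66.4 and 103 units of signal in KO heat shock, against 2.12, 9.99 and 4.52 in KO control. In WT MEFs it had 4376, 5677 and 2061 units after heat shock, against 48.7, 62.8 and 36.3 in WT control. Every heat-shocked library lay above every control library of its genotype, and the KO heat shock libraries sat just above the range of the unheated WT ones. The means were 79.7 ± 19.9 in KO heat shock and 5.54 ± 4.03 in KO control (SD, n = 3 each), a log2 fold change of 3.79 (SE 0.41, adjusted p = 1.69e-04 from limma). In WT MEFs they were 4038 ± 1831 after heat shock and 49.3 ± 13.3 in controls (SD, n = 3 each), a log2 fold change of 6.24 (SE 0.41, adjusted p = 1.00e-06 from limma). Replicate 3 of WT heat shock, the shallowest library, was the lowest of its group, and without it the change in WT MEFs was 6.67.

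Hspa1a had far fewer counted reads than its twin. It had 5.65, 3.11 and 11.5 units of signal in KO heat shock and no read in any KO control library. In WT MEFs its signal was 210.4, 331 and 90.9 after heat shock, against 0, 1.44 and 0 in WT control. The WT heat shock libraries stood well above all others, and the KO heat shock libraries held a handful of reads each. Summed over a group these were 19 reads in KO heat shock against 0 in KO control, and 583 in WT heat shock against 2 in WT control. Taking 3 reads over the KO control group as the floor, Hspa1a was at least 6.84-fold higher after heat shock in KO MEFs, and the 95% counting limit from the reads themselves was lower, at 5.04. Of the 19 reads 11 came from KO heat shock replicate 3, and without it the floor gave 4.37 and the counting limit 2.80. In WT MEFs the ratio was 415 (95% Clopper-Pearson interval 114 to 3432, counting error only). Limma called it higher in KO MEFs (2.81, SE 0.50, adjusted p = 0.00768) and in WT MEFs (7.11, SE 0.50, adjusted p = 1.62e-06), with fitted values that depend on the pseudocount.

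The KO calls of this pair were the only calls of members that an alternative ended. Hspa1a was not called in KO MEFs at a pseudocount of 5 (log2 fold change 1.17, adjusted p = 0.0872 from limma), with edgeR on the recovered reads (5.82, adjusted p = 0.143) or with the KO libraries fitted alone (adjusted p = 0.0721), a fit that also ended the KO call of Hspa1b (adjusted p = 0.0631). Part of the reads of the pair cannot be placed on 1 gene: of the 75-base windows along the transcript, 61.7% of those in Hspa1a and 55.8% of those in Hspa1b also occur in another gene, mostly the twin, and 19.0% of the exon bases of Hspa1a overlap Gm20481 on the other strand. The values of each gene are therefore uncertain, and their sum was fitted too. Added together, the pair rose in both lines, with limma fold changes on the log2 scale of 3.89 in KO (adjusted p = 1.49e-04) and 6.30 in WT MEFs (adjusted p = 1.06e-06).

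The promoters of the pair are shown because these are the 2 members whose RNA rose. They are the 250 bases before the RefSeq transcription start (GRCm38.p6, minus strand, 5′ to 3′), at chr17:34972157-34972406 for Hspa1a and chr17:34959239-34959488 for Hspa1b, and they are identical at 247 of 250 bases. Capitals mark a match to a heat shock element of 2 facing units, GAANNTTC or TTCNNGAA, searched on both strands, which lies 104 to 97 bases before the start in each.
Hspa1a: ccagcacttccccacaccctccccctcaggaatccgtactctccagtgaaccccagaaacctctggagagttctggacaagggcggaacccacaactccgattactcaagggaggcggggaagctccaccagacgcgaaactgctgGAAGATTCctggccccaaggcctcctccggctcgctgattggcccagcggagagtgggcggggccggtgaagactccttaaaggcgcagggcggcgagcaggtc
Hspa1b: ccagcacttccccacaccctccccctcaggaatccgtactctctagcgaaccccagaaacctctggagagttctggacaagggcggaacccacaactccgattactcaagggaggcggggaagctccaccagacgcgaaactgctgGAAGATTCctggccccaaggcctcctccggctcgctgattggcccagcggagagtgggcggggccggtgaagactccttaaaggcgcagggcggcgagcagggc
Windows from 250 bases before to 50 after the start were found for 8 of the 10 genes, with a second one for Hsph1 that overlaps the first, and were not matched for Hspa8 and Hspa9. A 2-unit match lies in the windows of 3 genes, Hspa1a, Hspa1b and Hsph1, and in 15.1% of 32851 RefSeq windows of the same length. A match is a description of the letters and not a measured binding site.

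**Figure D1:**
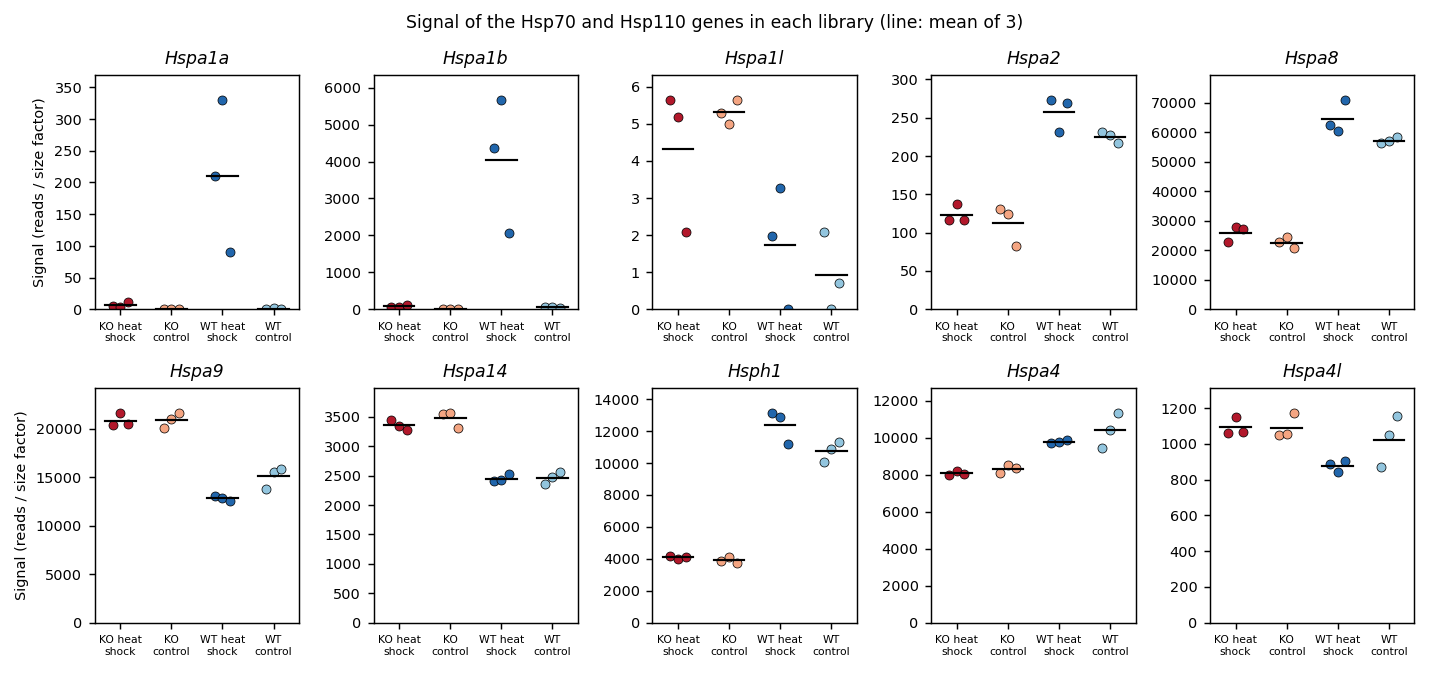
Signal (reads divided by the size factor, linear axis from 0 with its own range in each panel) of the 10 genes in each of the 12 libraries, with KO heat shock, KO control, WT heat shock and WT control in order and a line at the mean of 3. Hspa1a and Hspa1b stand out in WT heat shock, at 90.9 to 330.6 and 2061 to 5677, while Hspa8 and Hsph1 separate by genotype with little difference between heat-shocked and control libraries.

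**Figure D2:**
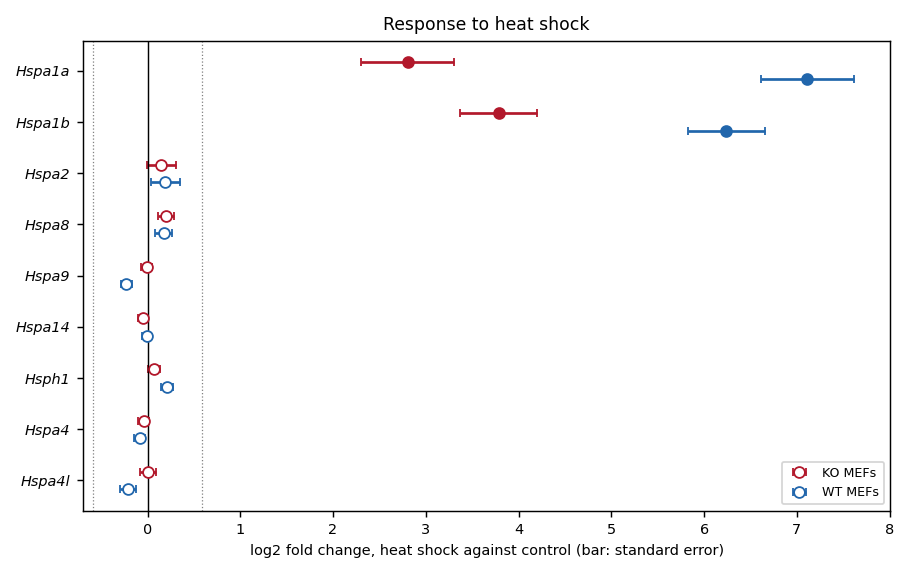
Log2 fold change of heat shock against control for the 9 tested genes, KO MEFs above WT MEFs in each row, with bars for the standard error. Filled points are called and open points are not, and the dotted lines mark the 1.5-fold threshold. The 4 filled points are Hspa1a and Hspa1b, at 2.81 and 3.79 in KO MEFs and 7.11 and 6.24 in WT MEFs.

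These 2 genes were the only members called after heat shock by limma. In KO MEFs 2 of the 9 tested members were called higher and 0 lower, where 0.577% of all 14201 tested genes were called higher and 0.31% lower. In WT MEFs the members' counts were the same, where 1.66% of tested genes were called higher and 2.02% lower. The median change of the 9 was 0.07 in KO and 0.17 in WT MEFs, against 0.00 over all genes in each. At an unadjusted p of 0.05 or less there were 3 of the 9 members in KO MEFs (Hspa1a, Hspa1b and Hspa8, each with a positive change), where 16.7% of all tested genes were at or under it. In WT MEFs there were 5, with positive changes of Hspa1a, Hspa1b and Hsph1 and negative ones of Hspa4l and Hspa9, where the share over all genes was 40.8%. Neither edgeR nor DESeq2 called a member lower in either genotype.

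Hspa8, the constitutive Hsp70 (Hsc70) that folds new proteins and uncoats clathrin vesicles, was the most abundant member in every group. It had 22704, 27877 and 27232 units of signal in KO heat shock, against 22725, 24401 and 20658 in KO control. In WT MEFs its signal was 62371, 60569.7 and 71053 after heat shock, against 56362, 56884 and 58351 in WT control. Heat-shocked and control libraries of KO MEFs overlapped, those of WT MEFs lay apart by a small margin, and every KO library was below every WT library. Heat shock gave log2 fold changes of 0.20 in KO MEFs (95% interval 0.01 to 0.39, adjusted p = 0.278 from limma) and 0.17 in WT MEFs (-0.02 to 0.36, adjusted p = 0.156), neither of them called. The genotype difference was called in both conditions, at -1.32 after heat shock (SE 0.09, adjusted p = 3.38e-09) and -1.34 at 37 °C (SE 0.09, adjusted p = 2.83e-09), with means at 37 °C of 22595 ± 1875 in KO and 57199 ± 1031 in WT MEFs (SD, n = 3 each). Of its 75-base windows 68.6% occur elsewhere, mainly in Gm15459, and its exons hold 3 Snord14 genes, so that reads could be split between copies.

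Hsph1, which encodes Hsp105 of the Hsp110 class, differed by genotype in the same direction. Its signal was 4186, 4012 and 4116 in KO heat shock, against 3887, 4097 and 3721 in KO control. In WT MEFs it was 13140.3, 12906 and 11194 after heat shock, against 10059.8, 10862 and 11312 in WT control. All 6 KO libraries lay below the lowest WT library, and heat-shocked and control libraries overlapped within each genotype. The genotype difference was called after heat shock (-1.59, SE 0.07, adjusted p = 1.33e-11 from limma) and at 37 °C (-1.46, SE 0.07, adjusted p = 3.66e-11), with means at 37 °C of 3901 ± 189 in KO and 10745 ± 634 in WT MEFs (SD, n = 3 each). The change with heat shock was 0.07 in KO MEFs (95% interval -0.07 to 0.22, adjusted p = 0.637) and 0.21 in WT MEFs (0.07 to 0.35, adjusted p = 0.0309), and the WT change, under the 1.5-fold threshold, was not called.

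The promoter of Hsph1 is given since this gene holds heat shock element matches but was not called after heat shock. It is the 250 bases before the outermost of its 2 RefSeq starts, chr5:149636337-149636586 (GRCm38.p6, minus strand, 5′ to 3′), with the 2-unit match in capitals at 33 to 26 bases before the start.
Hsph1: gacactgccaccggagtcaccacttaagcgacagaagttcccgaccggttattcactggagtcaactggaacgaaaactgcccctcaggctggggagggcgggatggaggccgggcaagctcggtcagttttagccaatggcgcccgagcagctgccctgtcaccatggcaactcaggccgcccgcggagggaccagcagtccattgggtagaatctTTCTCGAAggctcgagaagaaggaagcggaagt
A longer match of 3 alternating units lies 37 to 49 bases after this start, and 0.603% of the 32851 windows hold such a match. In the GENCODE annotation the gene spans 149614287 to 149636376 of chromosome 5. The end of the printed stretch, with its 2-unit match, therefore lies inside this span, as the 2 annotations place the start differently.

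Hspa4 and Hspa4l encode the other Hsp110-type chaperones of the cytosol (Apg-2 and Apg-1). Hspa4 had 7972, 8216 and 8047 units of signal in KO heat shock and 8087, 8523 and 8367 in KO control, against 9687, 9750.2 and 9889 in WT heat shock and 9424, 10394 and 11329 in WT control. Every KO library was below every WT library, by a margin far under the fold threshold (-0.28 after heat shock, adjusted p = 6.48e-04, and -0.31 at 37 °C, adjusted p = 2.05e-04 from limma). Hspa4l had 1064, 1149 and 1068 units in KO heat shock and 1048, 1055 and 1174 in KO control, against 888, 843 and 904 in WT heat shock and 869.9, 1048 and 1155 in WT control. KO libraries were above WT libraries after heat shock (0.32, adjusted p = 0.00442, not called) and mixed with them at 37 °C (0.10, adjusted p = 0.308). So the 3 Hsp110-type genes did not share 1 direction between the genotypes, with Hsph1 called lower in KO MEFs and Hspa4 and Hspa4l not called.

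Hspa9 encodes mortalin, the Hsp70 of the mitochondrial matrix, which pulls precursor proteins through the inner membrane and folds them. It was higher in KO MEFs, with 20441, 21628 and 20492 units of signal in KO heat shock, against 13083, 12894 and 12594 in WT heat shock. At 37 °C it had 20088, 21084 and 21655 units in KO control, against 13846, 15588 and 15909 in WT control. KO and WT libraries did not overlap in either condition. The difference passed the fold threshold after heat shock (0.70, SE 0.06, adjusted p = 5.21e-08 from limma) and not at 37 °C (0.47, SE 0.06, adjusted p = 3.87e-06), although these 2 differences were not shown to differ (0.22, 95% interval 0.05 to 0.40, adjusted p = 0.199). In WT MEFs the heat-shocked libraries were all below the controls (-0.23, adjusted p = 0.0113, under the fold threshold), and in KO MEFs they overlapped.

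Hspa14, whose product works with the ribosome-bound J-domain protein Dnajc2 in human cells, also had higher values in KO MEFs. The KO libraries ranged between 3275 and 3567 units of signal and the WT libraries between 2355 and 2563, without overlap. Its differences of 0.45 after heat shock (adjusted p = 1.02e-06 from limma) and 0.50 at 37 °C (adjusted p = 3.82e-07) stayed under 1.5-fold and were not called. Of its windows 14.4% are shared with the overlapping gene Gm45902.

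Hspa2 and Hspa1l are best known from male germ cells, where Hspa2 is needed for meiosis of spermatocytes. Hspa2 was read in every library, at 116, 137 and 116 units of signal in KO heat shock and 132, 125 and 82.5 in KO control, against 274, 232 and 269 in WT heat shock and 231, 227 and 217 in WT control. All KO libraries were below all WT libraries (-1.06 after heat shock, SE 0.15, adjusted p = 1.83e-05, and -1.02 at 37 °C, SE 0.15, adjusted p = 2.81e-05 from limma). The 8 germ cell markers summed to at most 6.28 units in any library. Heat shock gave 0.15 in KO MEFs (95% interval -0.18 to 0.48) and 0.19 in WT MEFs (-0.14 to 0.52), neither called.

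Hspa1l lies head to head with Hspa1a, 546 bases away on the plus strand of chromosome 17 (34972703 to 34979285), and was close to the limit of detection. It had 12 reads in KO heat shock, 16 in KO control, 5 in WT heat shock and 3 in WT control, spread over 10 of the 12 libraries. Its ratio in heat-shocked to control cells was 0.81 in KO MEFs (95% interval 0.35 to 1.83) and 2.37 in WT MEFs (0.46 to 15.3), so a change with heat shock was not detectable at this depth. At 37 °C the ratio of KO to WT was 6.66 (1.91 to 35.7, counting error only), and a fit with no filter on low values called it higher in KO control (1.86, adjusted p = 0.00992 from limma), a call that rests on 16 reads against 3. After heat shock the ratio of KO to WT was 2.27 (0.75 to 8.24), and the same fit did not call it (1.11, adjusted p = 0.112). Its exons share 71.9% of their bases with the antisense gene Gm10501. No 2-unit heat shock element match was found in its promoter window.

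Between the genotypes, the called members were lower in KO MEFs with 1 exception. After heat shock 5 of the 9 tested members were lower in KO MEFs (Hspa1a, Hspa1b, Hspa2, Hspa8 and Hsph1) and 1 was higher (Hspa9), where 25.5% of all tested genes were called lower and 23.2% higher. At 37 °C 4 were lower (Hspa1b, Hspa2, Hspa8 and Hsph1) and 0 higher, where 25.8% of tested genes were called lower and 22.9% higher. The medians of the 9 were -1.06 after heat shock and -0.43 at 37 °C, against -0.03 after heat shock and -0.04 at 37 °C over all genes. The median at 37 °C is the fitted value of Hspa1a, which had 0 reads in KO control and 2 in WT control. That value varied between -2.41 and 0.45 over the alternatives, so this median is no measure of a shift of the family. At an unadjusted p of 0.05 or less there were 9 of the 9 members after heat shock and 7 at 37 °C, where 77.6% of all tested genes after heat shock and 77.3% at 37 °C were at or under it, so these counts are read as no result about the members. No member was called higher by edgeR or DESeq2 at 37 °C. With genotype calls at about 1 in 4 genes in each direction, calls in either direction were common across the whole table.

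By its fitted change, Hspa1b was the member furthest apart between the genotypes. In heat-shocked cells it differed by -5.55 (SE 0.41, adjusted p = 1.15e-08 from limma), and the group sums of reads were 224 in KO and 11146 in WT MEFs. At 37 °C it differed by -3.10 (adjusted p = 7.32e-06), with 18 reads in KO and 186 in WT control. Hspa1a in heat-shocked cells was 32.4-fold lower in KO MEFs by reads (95% interval 20.5 to 54.2), while at 37 °C both genotypes were under the floor of 3 reads over the group and no fold is given. Of 4 tested neighbours of the locus, none was called lower in KO MEFs in either condition, and Vars was called higher at 37 °C (0.65, adjusted p = 7.91e-07).

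**Figure D3:**
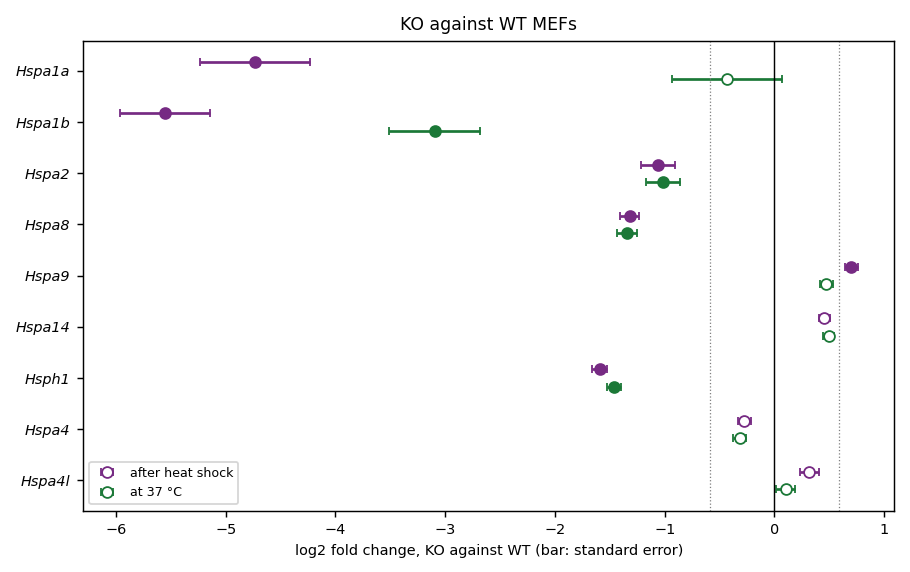
Log2 fold change of KO against WT MEFs for the 9 tested genes, after heat shock above and at 37 °C below in each row, with bars for the standard error. Filled points are called, open points are not, and the dotted lines mark the 1.5-fold threshold. Hspa1a, Hspa1b, Hspa2, Hspa8 and Hsph1 lie to the left after heat shock, down to -5.55 for Hspa1b, and Hspa9 is the filled point to the right at 0.70.

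The difference between the genotypes in the heat shock response was tested as an interaction term. For Hspa1b, the KO response less the WT response came to -2.46 on the log2 scale (95% interval -3.70 to -1.21, adjusted p = 0.112 from limma), and that of Hspa1a was -4.30 (-5.83 to -2.78, adjusted p = 0.0767). Neither was called, nor was any of the 9 members, where 0% of the 14201 tested genes were called higher and 0% lower. At an unadjusted p of 0.05 or less there were 3 of the 9 members (Hspa1a, Hspa1b and Hspa9), where 2532 genes, 17.8% of all tested, were at or under it. EdgeR called 10 genes and none of the members, and DESeq2 called 35 genes, among them Hspa1b (-2.57, adjusted p = 0.0201). A pseudocount of 5 brought calls for both Hspa1a (-3.96, adjusted p = 0.00715) and Hspa1b (-3.08, adjusted p = 0.0258). Hspa1a was also called at a filter of 50 (adjusted p = 0.0467), with quantile normalization (-4.77, adjusted p = 0.0317) and without WT control replicate 1 (-4.09, adjusted p = 0.0326), WT heat shock replicate 1 (-4.21, adjusted p = 0.0334) or WT heat shock replicate 3 (-4.81, adjusted p = 0.0259). Hspa1a was called in 6 of 21 alternatives, with values from -4.81 to -2.54. It had 0 reads in KO control and 2 in WT control, so its response difference depends on the pseudocount. The sum of the pair gave -2.41 (adjusted p = 0.119 from limma). For the other 7 members the intervals lay between -0.51 and 0.48, with -0.24 to 0.29 for Hspa8 and -0.33 to 0.07 for Hsph1. The interval was widest for Hspa2 (-0.51 to 0.42), that of Hspa4l was -0.05 to 0.48, and that of Hspa9 (0.05 to 0.40) lay above 0.

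Levels were compared between genes per kb of the principal transcript. Hspa8 came first and Hspa9 next in each group, with levels of 10834 and 6839 per kb in KO heat shock, 9438 and 6869 in KO control, 27011 and 4217 in WT heat shock and 23893 and 4957 in WT control. Hsph1, Hspa4 and Hspa14 came after them, in an order that changed with the transcript length used and with genotype. With either length, Hsph1 ranked above Hspa14 in both WT groups and below it in both KO groups. Hspa1b reached 1441 per kb in WT heat shock, a level not apart from that of Hspa14 (1365), against 17.6 in WT control. In KO MEFs it stayed below Hspa2 in both conditions, at 28.4 per kb after heat shock and 1.98 at 37 °C.

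By these levels per kb, with the same limits, Hspa8 made up much of the family's sum. Its share of the summed level per kb was 47.9% ± 2.61 in KO heat shock, 44.4% ± 2.08 in KO control, 68.0% ± 3.46 in WT heat shock and 67.3% ± 1.19 in WT control (SD, n = 3 each). Hspa9 held 30.3% ± 1.26 in KO heat shock, 32.4% ± 1.92 in KO control, 10.6% ± 0.547 in WT heat shock and 13.9% ± 0.612 in WT control (SD, n = 3 each). The inducible pair took 0.136% ± 0.0367 in KO heat shock and 0.00917% ± 0.00633 in KO control. In WT MEFs it took 3.85% ± 1.85 after heat shock and 0.0501% ± 0.0145 in controls (SD, n = 3 each). The summed level was 22568 ± 1302 per kb in KO heat shock, 21237 ± 853 in KO control, 39682 ± 1387 in WT heat shock and 35513 ± 1194 in WT control (SD, n = 3 each), and the KO libraries lay below the WT libraries.

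**Figure D4:**
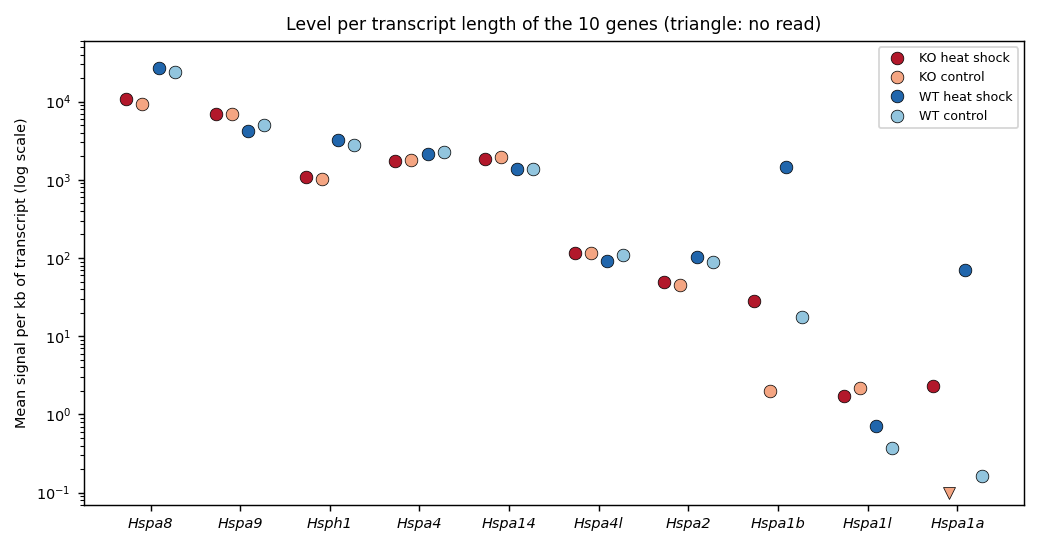
Mean signal per kb of principal transcript (log scale) of the 10 genes, with points for KO heat shock, KO control, WT heat shock and WT control, and a triangle where no read was found. Hspa8 and Hspa9 lead in each group, and Hspa1b spans the widest range among genes read in all 4 groups, 1.98 per kb in KO control to 1441 in WT heat shock.

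After heat shock, the calls of Hsp70 partners are to be read against the shares over all tested genes. These were 0.577% higher and 0.31% lower in KO MEFs, and 1.66% higher and 2.02% lower in WT MEFs. Of 13 J-domain proteins 1 was called, Dnajb1, the Hsp40 that works with inducible Hsp70, which was not called in KO MEFs (0.26, limma adjusted p = 0.256) and rose in WT MEFs (0.82, adjusted p = 4.27e-04). The difference between these responses was called with DESeq2 (-0.60, adjusted p = 0.00852) and, in limma, without WT heat shock replicate 3 (-0.75, adjusted p = 0.00248), but not otherwise. Of 7 nucleotide exchange factors 1 was called, in WT MEFs, Bag3, with 0.51 in KO MEFs (adjusted p = 0.00410, not called) and 0.59 in WT MEFs (adjusted p = 6.00e-04), at the edge of the fold threshold. The WT call of Bag3 ended at a pseudocount of 5 (0.58), with quantile normalization (0.56) and without WT control replicates 2 or 3 or WT heat shock replicates 1 or 2 (0.55 to 0.58). Bag3 was called in KO MEFs without replicate 1 of KO control or of KO heat shock (0.59 in each). Hspb1, a small heat shock protein that holds clients for Hsp70, rose in both genotypes (1.26 in KO and 1.62 in WT MEFs). None of 10 genes of Hsp90 and its adaptors, 8 partners of mitochondrial Hsp70, 5 further Hsp70 superfamily genes and 3 heat shock factors was called after heat shock in either genotype. Among them were Hspa5, the Hsp70 of the endoplasmic reticulum (0.04 in KO and -0.08 in WT MEFs), and Hsf1 (0.02 in KO and 0.31 in WT MEFs).

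Between the genotypes these partners moved in both directions, and all their counts are to be read against the 25.8% of tested genes called lower and 22.9% called higher at 37 °C. At this temperature 2 of the 13 J-domain genes were called lower and 2 higher in KO MEFs, a smaller share in each direction than over all genes (median -0.10, against -0.04 over all genes). Dnaja4 had no read in any KO library and passed the filter through the WT libraries alone, so that its direction was fixed by the filter. It was at least 80.4-fold lower at 37 °C with 3 reads over the KO control group as the floor. Dnaja1, a cytosolic partner of Hspa8, differed by -0.81, while Dnajb1 was higher by 0.69 and Dnajc5, a J-domain protein of secretory vesicles, by 0.60. After heat shock the counts of the list were the same, but Dnajb1 was not called (0.12, limma adjusted p = 0.336) and Dnajb14 was called higher (0.64). The call of Dnajc5 ended without WT control replicate 1 (0.58) or KO control replicate 1 (0.57). Of the 5 further Hsp70 superfamily genes 1 was lower, the distant relative Hspa12a (-6.54, adjusted p = 2.18e-12), and Hspa5 differed by -0.09 and was not called. The nucleotide exchange factors Bag3 (-1.62) and Bag5 (-0.69) were lower, and the other 5 of the 7 were not called.

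Of the 10 genes of Hsp90 and its adaptors 3 were lower in KO MEFs at 37 °C and 1 was higher, a share of lower genes near that over all genes. These were Hsp90aa1, the inducible Hsp90 (-0.84), St13, which encodes the Hsp70-interacting protein (-0.88), the p23 gene Ptges3 (-0.61) and, upwards, the immunophilin gene Fkbp4 (1.34). Without WT control replicate 3 Ptges3 was not called (-0.52). In the list of small heat shock proteins and chaperonins 4 of 6 were lower in each condition, and at 37 °C these were Cryab (-2.31), Hspb8 (-2.22), Hspb1 (-1.70) and the collagen chaperone gene Serpinh1 (-0.95). The 2 not called in either condition were the chaperonin genes of the list. These were Hspd1 (0.01 at 37 °C and 0.32 after heat shock) and Hspe1 (0.23 and -0.03). The mitochondrial list had 4 of 8 genes higher and 1 lower at 37 °C, and 3 higher and 2 lower after heat shock. Dnaja3, the J-domain partner of mortalin, was 2.83-fold higher. Pam16 and Timm44 of the import motor were higher by 0.89 and 0.80 on the log2 scale, while Grpel1, the nucleotide exchange factor of mortalin, was lower (-0.84). Dnlz was called higher at 37 °C (0.59), but not without WT control replicate 3 (0.56) or KO control replicate 1 (0.55), and not after heat shock (0.26), where Dnajc19 was called lower (-0.69). Of the 3 heat shock factors, Hsf1 was under the fold threshold at 37 °C (-0.51, adjusted p = 1.94e-05 from limma) and called lower after heat shock (-0.79, adjusted p = 1.68e-07). Hsf2 was lower at 37 °C (-0.76). Hsf4 had 7 reads in KO and 408 in WT control, a ratio 46.7-fold lower in KO MEFs (95% interval 22.5 to 117, counting error only), and since no KO library reached the filter's minimum its direction was fixed by the filter. Its fitted change of -5.12 at 37 °C varied between -5.56 and -3.97 over the alternatives.

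The genes whose pattern over the 4 group means was nearest to that of a member were found by the root mean square difference of centred log2 means. Nearest to Hspa1b was Hspa1a (0.99), and the next named genes, Cx3cr1 (1.65), Evpl (1.89), Mir7688 (2.00) and Atf3 (2.02), were far less close. Hspa8 had much closer matches, Tle6 and Pla1a (0.01 each) and Fbxo36 and Als2cr12 (0.03 each). The genes nearest to Hsph1 were Syngr1 (0.02) and Zfp651, Hap1, Praf2 and Fscn1 (0.03 each). With 4 means per gene and 14201 genes, close matches are a description of shape alone.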

How the data were processed

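The RNA-seq data are 12 MEF libraries (4 groups of 3) made with a stranded mRNA kit. The deposited table gives 1 value per gene and library, a signal that the authors made by dividing HTSeq read counts by a DESeq2 size factor. The submitters' processing notes name FastQC, cutadapt 1.10, STAR 2.5.2 and mm9, whereas the methods name GRCm38; the table holds symbols and no positions, and positions here are those of GRCm38. Whether HTSeq counted by strand is not given in the sources used here. All 549696 values (100%) were whole multiples of 1 read within 0.01 read, and these recovered reads served the count tests.

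The main test was limma 3.58.1 (R 4.3.3) on log2(signal + 1), with 1 mean per group over all 12 libraries, a trend in the variance and Benjamini-Hochberg adjustment over the 14201 genes that reached a signal of 10 in 3 or more libraries. Calls needed an adjusted p not above 0.05 together with a change of 1.5-fold or more. Alternatives were pseudocounts of 0.5 and 5, no filter, a filter of 50, quantile and TMM normalization, edgeR 4.0.16 and DESeq2 1.42.0 on the recovered reads, the compared groups alone, a replicate block, each library left out and Hspa1a plus Hspa1b summed. The labels do not say whether replicates were separate cultures, so p-values measure the spread between these libraries. Replicates of a group differed by more than sampling noise (chi-square per degree of freedom 2.45 to 17.2 in 12 pairs). Intervals on read ratios are Clopper-Pearson at 95% and cover counting error only.

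The members and partner lists were chosen with earlier results of these data known. All members are named, and up to 4 called partners per list and comparison, by size, with Hsf1, Dnajb1, Bag3, Hsp90aa1 and Hspa5; Dnlz, outside this rule, was named after its values were seen. For the nearest patterns, up to 5 genes per member were selected, and some of them are not reported here. Gene positions and transcript lengths come from GENCODE vM21 and promoters from RefSeq (GRCm38.p6). Windows of 75 bases were compared between transcripts to find shared sequence. The fitting code was tested on simulated data.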

Additional observations from a re-analysis of the deposited data

How the results depend on the processing

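Of 1016 values of single members under the alternatives, 1004 kept their side of the thresholds, 4 lost a call, 8 gained one and none turned a called direction, while 26 values that were not called changed sign. Of 3192 values of 28 genes outside the family (partners named by the rule, Tgm2 and Dnlz), 3168 kept their side, 18 lost a call and 6 gained one. The count of members higher after heat shock in WT MEFs was 1 with Hspa1a and Hspa1b summed. In KO MEFs it was 1 at a pseudocount of 5, with edgeR and with the pair summed, and 0 with the KO libraries alone. In KO against WT control it was 1 with no filter on low values, through Hspa1l. Over all genes, heat shock in WT MEFs raised 122 genes at a filter of 50, against 236, and leaving out a library gave 157 to 282 higher and 155 to 478 lower, against 287. Without WT control replicate 3 there were 157 higher and 155 lower, and the lower count was 478 without WT control replicate 1 and 450 without WT heat shock replicate 1. In KO MEFs 30 genes were higher and 14 lower with the KO libraries alone, against 82 and 44, and the lower count was 29 to 52 with a library left out, the lowest without KO control replicate 3.

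For the difference between the responses, with 0 higher and 0 lower genes in the reported fit, the counts were 1 higher and 1 lower at a pseudocount of 0.5, 7 and 5 at a pseudocount of 5, 3 lower at a filter of 50, 1 and 3 with quantile normalization, 6 and 4 with edgeR, 28 and 7 with DESeq2, and 0 to 101 higher and 0 to 25 lower with a library left out, the most without WT control replicate 1 (WT heat shock replicate 1, 52 and 16). Members lower in this test were 2 at a pseudocount of 5, 1 at a filter of 50, with quantile normalization and with DESeq2, and 0 to 1 with a library left out. Quantile normalization shifted the median of all genes by 0.12 at 37 °C and 0.11 after heat shock between the genotypes, where 4074 and 3996 genes were higher and 3170 and 3150 lower, and changed no member's call there.

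The replicate numbers were not taken as pairs: deviations of libraries with the same number correlated above 0.1 in 2 of 18 pairs (-0.0710 to 0.205), and 6 of 12 libraries correlated best with their own number. The replicate block changed none of the 45 member calls. Depth limits Hspa1l throughout, Hspa1a in KO MEFs and in WT control, and Hspa1b in KO control, where few reads decide the values.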
